A study of Homo sapiens with 6 samples.

Results

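The nuclear-encoded subunits of the mitochondrial respiratory chain and of its ATP synthase were followed, complex by complex, in human cells with and without a knockdown of ACSS2, the nuclear and cytosolic enzyme that makes acetyl-CoA from acetate. The rule for members reads gene symbols and no measured value, although it was set with earlier results of these data known, and 78 of the 58735 features in the deposited count table matched. They comprise 36 genes of complex I, 4 of complex II, 9 of complex III, 12 of complex IV and 16 of complex V, together with CYCS, which encodes cytochrome c. A total of 77 were tested; the exception, NDUFV2, had too few counts in every library.

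Electrons from NADH enter the chain at complex I and those from succinate at complex II, and both pass them to coenzyme Q. Complex III hands them on to cytochrome c, complex IV passes them to oxygen, and complex V uses the proton gradient built on the way to make ATP. All 4 proton-moving complexes are mosaics of subunits encoded in the nucleus and in mitochondrial DNA, whereas complex II and cytochrome c are wholly nuclear-encoded.

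The series compared the transcriptome of ACSS2-deficient and control BE(2)-C cells, a human line derived from a neuroblastoma, by RNA sequencing. The first group, shACSS2 (genotype ACSS2 deficiency in the labels), holds 3 libraries from a stable line made with a lentiviral shRNA against ACSS2. The second group, NS (genotype Wildtype), holds 3 libraries from a stable line made with a non-silencing lentiviral shRNA, and both lines were kept under puromycin selection. The titles write the knockdown as siACSS2 and a passage of the treatment text names the line shNgBR; the number of clones behind each line and the hairpin sequences are not stated in the labels. No label says that the 3 libraries of a group are separate cultures, so each p-value speaks only of the spread between libraries, part or all of which may be technical. In bulk RNA, fewer cells expressing a gene and less of its RNA per cell cannot be told apart.

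Library totals ran from 16617885 to 20831599 counts. The targeted gene had 75, 84 and 110 counts in shACSS2, against 366, 387 and 438 counts in NS. ACSS2 averaged 5.32 ± 0.762 CPM (each count relative to its library's total, TMM-normalised here) in shACSS2 and 20.5 ± 0.324 CPM in NS (SD, n = 3 each), a log2 fold change of −1.94 (SE 0.145, edgeR quasi-likelihood test with Benjamini-Hochberg adjustment over 16210 genes, adjusted p = 1.95e-06). Exact permutation of the 6 log2 CPM values (two-sided) gave p = 0.1, below which 3 against 3 libraries cannot go. Of 12 markers of adrenergic neuroblastoma, 6 averaged at least 1 CPM, while PHOX2A, TH and TFAP2B had no count in any library; the list summed to between 87.5 and 110 CPM in shACSS2 and between 78.6 and 85.4 CPM in NS. All 6 mesenchymal neuroblastoma markers reached 1 CPM, at a sum of 381 to 432 CPM in shACSS2 and 368 to 423 CPM in NS, and none of 5 Schwann and glial markers did, at 1.77 to 1.93 CPM in shACSS2 and 1.42 to 2.03 CPM in NS. The part of these markers in the results was not tested.

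The libraries of each group did not stand level for respiratory chain genes. Within NS, replicate 3 was the lowest of the 3 libraries for 68 of the 77 tested members and replicate 2 the highest for 59. Within shACSS2, replicate 3 was the lowest for 58 and replicate 1 the highest for 50. The median deviation of the members from their group mean (log2) was 0.11 in shACSS2 replicate 1 and −0.11 in shACSS2 replicate 3, against 0.17 in NS replicate 2 and −0.20 in NS replicate 3. Across all tested genes, the deviation of a library from its group correlated with GC content at a Spearman coefficient of −0.60 in shACSS2 replicate 1, 0.48 in shACSS2 replicate 2 and 0.39 in shACSS2 replicate 3, against −0.09 to 0.11 in NS. With gene length the coefficients were largest in NS replicate 2 (−0.21) and NS replicate 3 (0.16). Genes are not independent replicates, and these values describe the libraries. After correction for GC content and length 22 members rose and 2 fell. Over all 16210 tested genes, rises and falls together numbered 4605 with this correction and 2776 without it. With it the median log2 fold change over all tested genes was 0.047, and 56.1% of them were above 0, against 50.3% without it. Counts of changed members are therefore given with and without single libraries.

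Most members were slightly higher in shACSS2, few of them passed the test, and 1 subunit of complex III went strongly the other way. Of the 77 tested members 11 rose (14.3%, where 7.48% of all 16210 tested genes rose) and 3 fell (3.90%, where 9.64% of all tested genes fell) at an edgeR adjusted p of 0.05. The other 63 did not pass. In 20 members (26.0%) every shACSS2 library lay above every NS library, against 17.6% of all tested genes. In 4 members (5.19%) every shACSS2 library lay below every NS library, against 18.7% of all tested genes. The fitted log2 fold change was above 0 in 67 of 77 members (87.0%), against 50.3% of all tested genes, and its median was 0.17, against 0.00 over all tested genes. The changes were small: apart from NDUFA7 no tested member reached a fold of 2 in either direction. NDUFA7 passed the count filter only through NS, where it is high, and its call was lost in each of the 6 fits with a library left out; the other members that fell were UQCR10 and NDUFS1.

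**Figure D1:**
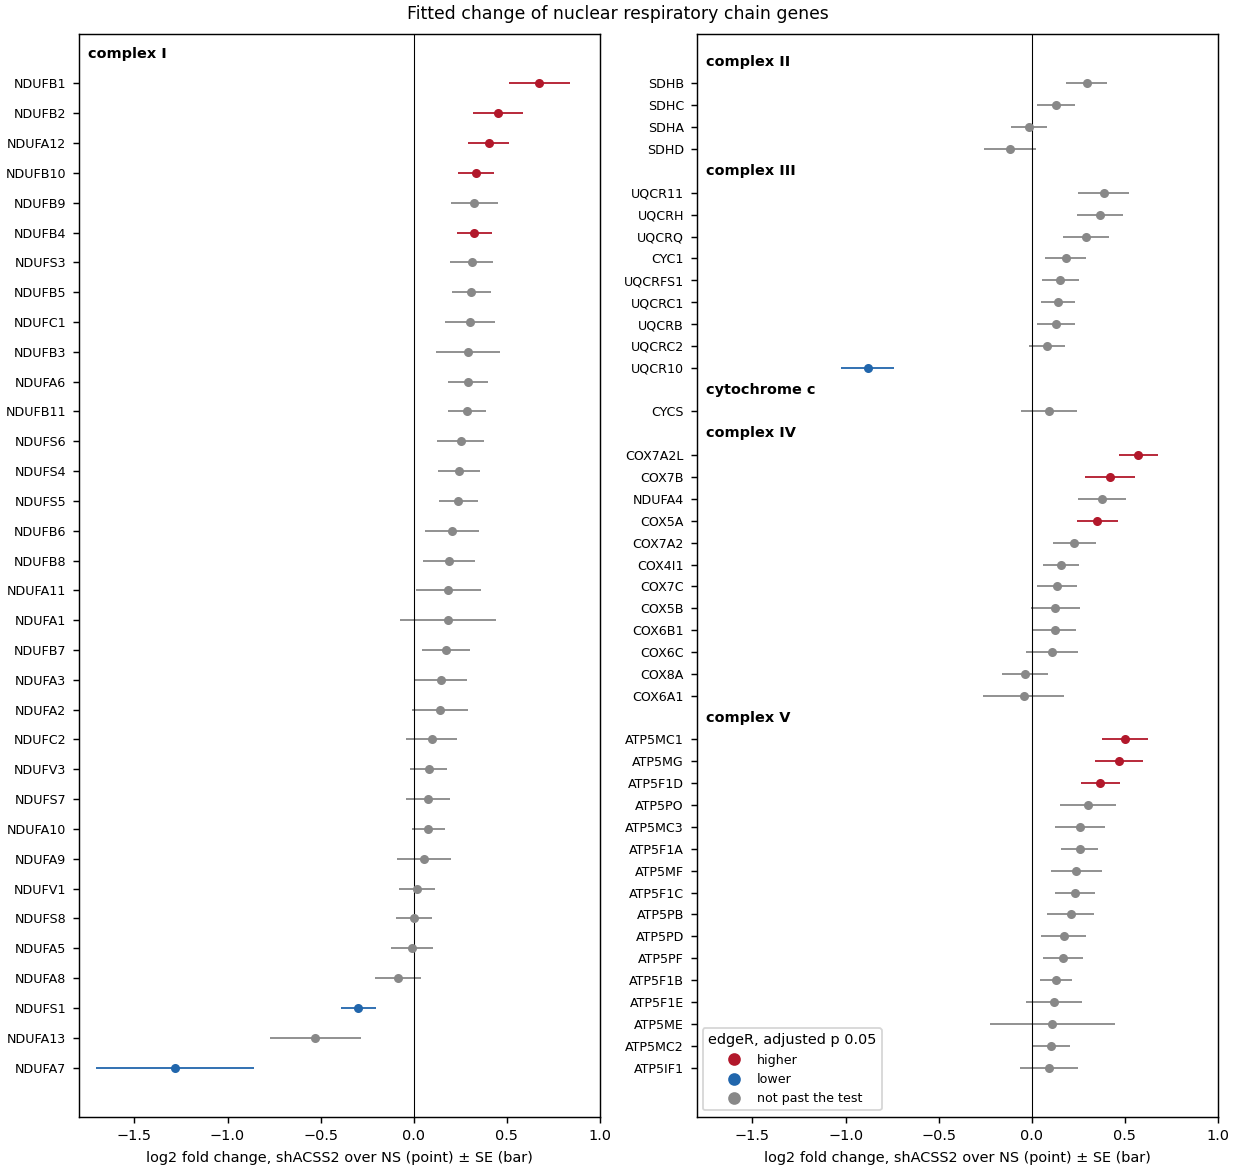
Fitted log2 fold change of shACSS2 over NS (points) with its standard error (bars) for 76 of the 77 tested genes, complex I on the left and the other complexes on the right; red and blue points passed the edgeR test at an adjusted p of 0.05. Most points lie between 0 and 0.50, and UQCR10 at −0.88 stands away from the other genes of complex III.

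The number of members that rose rested on single NS libraries, and so did the number of calls over all tested genes. Members that rose numbered 1 without NS replicate 3 (COX7A2L) and 2 without NS replicate 1 (COX7A2L and NDUFB1). They numbered 6 without shACSS2 replicate 2 and 19 without NS replicate 2. Calls over all tested genes, higher and lower together, numbered 2776 with all 6 libraries. They numbered 1151 without NS replicate 3 and 1018 without NS replicate 1. Such calls came to 1949 without shACSS2 replicate 2 and 2567 without NS replicate 2. The fitted value was above 0 in 56 of 77 members without NS replicate 3 and in 64 to 69 of 77 without any other single library, and the median over the members was 0.08 without NS replicate 3. When plain library totals were used for scaling, the median over all tested genes moved to −0.07, 64 of 77 members stayed above 0 and 5 were called higher. The count of members that fell was 3 without shACSS2 replicate 1 and 1, UQCR10, without any other single library. Those 3 were UQCR10, NDUFS1 and a member not called with all 6 libraries. UQCR10 and COX7A2L were the members that remained past the test in all 6 fits with a library left out.

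**Figure D2:**
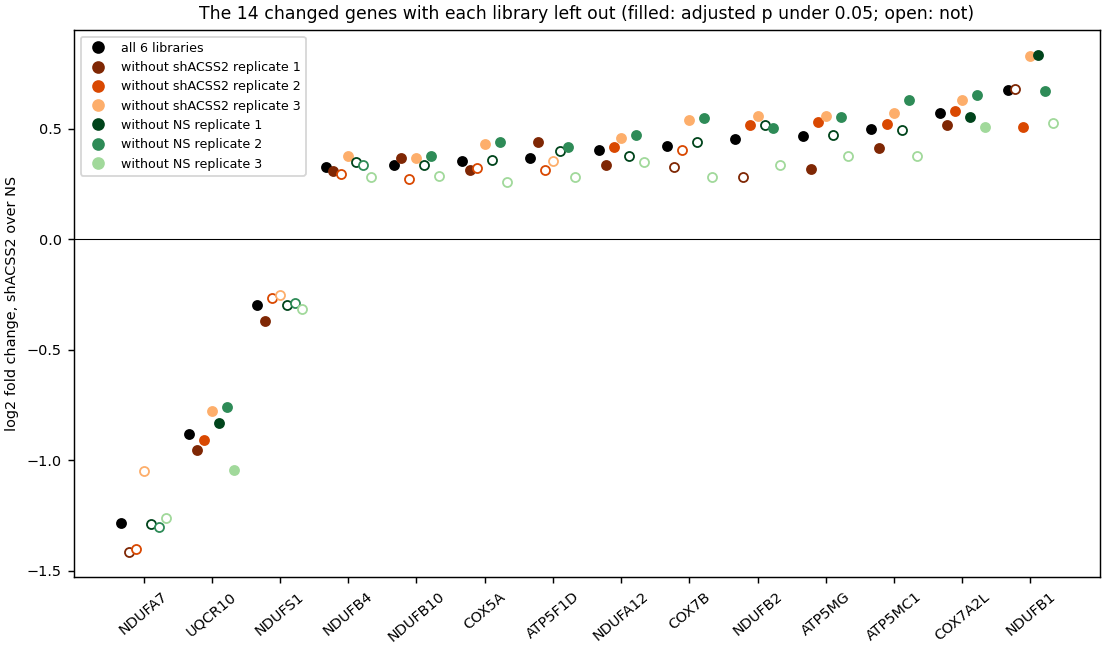
Log2 fold change of shACSS2 over NS of the 14 genes that changed, with all 6 libraries (black) and with each library left out (colours); filled points had an edgeR adjusted p under 0.05 and open points did not. UQCR10 and COX7A2L are filled throughout, the other rising genes are open without NS replicate 3, and NDUFA7 is open in every fit with a library left out.

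Complex I, the NADH dehydrogenase, showed its rises among the accessory subunits. Of 35 tested genes 5 rose, 2 fell and 28 did not pass, where 7.48% of all tested genes rose and 9.64% fell. The median log2 fold change was 0.19, and 30 of 35 were above 0. This median came to 0.07 when NS replicate 3 was left out and to 0.12 when shACSS2 replicate 1 was. It came to 0.29 when either NS replicate 2 or shACSS2 replicate 3 was. By position in the complex, the median was 0.05 over the 6 tested core subunits of the matrix arm, 0.14 over 9 accessory subunits of that arm and 0.22 over 20 accessory subunits of the membrane arm. None of the 6 tested core subunits rose, a count too small to be a result about them.

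The core subunits of the matrix arm carry the cofactors that move electrons from NADH to coenzyme Q. NDUFS1 (chromosome 2, 206114817 to 206159603, minus strand), an iron-sulfur protein of the arm's electron-input end, had 177, 154 and 150 CPM in shACSS2, against 198, 201 and 193 CPM in NS. Every shACSS2 library lay below every NS library. NDUFS1 fell, with a log2 fold change of −0.30 ± 0.0948 (SE; adjusted p = 0.0413, edgeR), and this call held in 1 of 6 fits with a library left out, that without shACSS2 replicate 1. Its value was −0.15 after correction for gene length and GC content (edgeR adjusted p = 0.108).

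The other core subunits did not pass the test. NDUFV1, which binds NADH and the flavin, stood at a log2 fold change of 0.02 ± 0.0976 (SE), and NDUFS8, which holds iron-sulfur clusters on the way to the quinone site, one of 0.00 ± 0.096 (SE). NDUFS7, near the quinone site, averaged 58.0 ± 5.96 CPM in shACSS2 and 55.0 ± 7.63 CPM in NS (SD, n = 3 each). NDUFS3 had the highest fitted value of the core set, 0.31 ± 0.115 (SE; adjusted p = 0.0731, edgeR). NDUFV2, an iron-sulfur protein that partners NDUFV1, could not be measured: it had 5, 4 and 3 counts in shACSS2, against 5, 7 and 11 counts in NS. In exons of other annotated genes lie 91.2% of its coding bases, and AP005263.1 shares the most exonic bases with it.

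Among the accessory subunits of the matrix arm, NDUFA12 rose. This late-joining subunit takes the place of its paralog NDUFAF2, an assembly factor, as complex I matures. NDUFA12 had 57.2, 51.5 and 48.2 CPM in shACSS2, against 38.4, 43.6 and 36.8 CPM in NS, with no overlap of the groups. The log2 fold change was 0.40 ± 0.109 (SE; adjusted p = 0.0204, edgeR), and the call was lost without NS replicate 1 or NS replicate 3. NDUFAF2 rose as well, at 33.9, 31.7 and 26.3 CPM in shACSS2 and 19.8, 21.7 and 19.9 CPM in NS (log2 fold change 0.58 ± 0.122, SE; adjusted p = 0.00505, edgeR), and remained past the test in all 6 fits with a library left out. NDUFA7, another accessory subunit, was called lower from very few counts, 8, 8 and 5 in shACSS2 against 18, 19 and 23 in NS. The NDUFA7 log2 fold change was −1.28 ± 0.425 (SE; adjusted p = 0.0487, edgeR), and the call was lost in each of the 6 fits with a library left out. All coding bases of NDUFA7 lie in exons of other annotated genes, and AC010323.1 shares the most exonic bases with it. It passed the count filter only through its NS libraries.

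The membrane arm, with 20 of the 35 tested genes of the complex, carried 4 of the 5 rises, where 7.48% of all tested genes rose. Counts this small are no result about position in the complex. NDUFB1, a small subunit of the distal membrane arm, showed the highest fitted rise of any member. It had 44.4, 54.3 and 34.8 CPM in shACSS2, against 33.9, 27.7 and 22.1 CPM in NS. The lowest shACSS2 library lay just above the highest NS library. The NDUFB1 log2 fold change was 0.67 ± 0.163 (SE; adjusted p = 0.0115, edgeR), past the test in 4 of 6 fits with a library left out and not past it without NS replicate 3 (adjusted p = 0.0767) or without shACSS2 replicate 1 (adjusted p = 0.13).

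A further 3 subunits of the same arm rose by less. NDUFB2 had 112, 83.3 and 78.2 CPM in shACSS2, against 72.6, 71.4 and 55.9 CPM in NS (log2 fold change 0.45 ± 0.136, SE; adjusted p = 0.0322, edgeR). NDUFB10 had 274, 310 and 273 CPM in shACSS2, against 228, 241 and 211 CPM in NS (log2 fold change 0.33 ± 0.0953, SE; adjusted p = 0.0258, edgeR). NDUFB4 had 153, 155 and 138 CPM in shACSS2, against 123, 121 and 112 CPM in NS (log2 fold change 0.32 ± 0.0944, SE; adjusted p = 0.0282, edgeR). The groups did not overlap for any of these genes, and all of their calls were lost when NS replicate 1 or NS replicate 3 was left out. The call of NDUFB2 was also lost without shACSS2 replicate 1, that of NDUFB10 without shACSS2 replicate 2, and that of NDUFB4 without shACSS2 replicate 2 or NS replicate 2. At the other end of the membrane arm's order among well-measured genes was NDUFA8, with a log2 fold change of −0.09 ± 0.125 (SE). NDUFA13 stood lower still but at few counts, 30, 59 and 49 in shACSS2 against 66, 74 and 91 in NS (log2 fold change −0.53 ± 0.244, SE; adjusted p = 0.145, edgeR). NDUFA13 shares 69.4% of its coding bases with exons of other annotated genes, and it was singled out after its values were seen. The gene that shares the most exonic bases with it, AC011448.1, had a log2 fold change of −0.97 ± 0.348 (SE; adjusted p = 0.0668, edgeR).

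Complex II, the succinate dehydrogenase of the citric acid cycle, showed no change detectable at this depth and spread. None of its 4 genes passed the test, where 7.48% of all tested genes rose and 9.64% fell. The median log2 fold change was 0.06 (0.02 without NS replicate 1, 0.10 without NS replicate 2). SDHA, the flavoprotein that oxidises succinate, had 210, 254 and 242 CPM in shACSS2, against 228, 233 and 250 CPM in NS (log2 fold change −0.01 ± 0.0975, SE). SDHB, which carries the iron-sulfur clusters, had 118, 103 and 107 CPM in shACSS2, against 86.8, 103 and 78.6 CPM in NS (log2 fold change 0.29 ± 0.109, SE; adjusted p = 0.0744, edgeR). Its shACSS2 libraries all lay above its NS libraries, though the nearest pair differed by under 1 CPM. The log2 fold changes of the membrane anchors SDHC and SDHD were 0.13 ± 0.102 (SE) and −0.12 ± 0.141 (SE).

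Complex III, which passes electrons from coenzyme Q to cytochrome c, was split between UQCR10 and the rest. Of 9 genes 1 fell, none rose and 8 did not pass, and those 8 all had fitted values above 0. Over all tested genes 7.48% rose and 9.64% fell. The median log2 fold change of the 9 genes was 0.15, with 0.08 when NS replicate 3 was left out and 0.23 when NS replicate 2 was. UQCR10 (ENSG00000184076, chromosome 22, 29767369 to 29770413, plus strand) encodes a small accessory subunit that lies beside the Rieske protein and cytochrome c1, the subunits that carry electrons out of the complex. It had 858, 829 and 740 counts in shACSS2, against 1686, 1969 and 1476 counts in NS, or 53.4, 50.7 and 41.4 CPM in shACSS2, against 96.0, 104 and 68.1 CPM in NS. The groups were far apart, with the highest shACSS2 library below the lowest NS library. UQCR10 averaged 48.5 ± 6.28 CPM in shACSS2 and 89.4 ± 18.9 CPM in NS (SD, n = 3 each), a fitted fold of 0.543. Its log2 fold change was −0.88 ± 0.143 (SE; adjusted p = 0.000953, edgeR) and lay between −1.05 and −0.76 over all 18 alternatives, with an adjusted p of at most 0.0216. No other annotated gene overlaps its exons.

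Because UQCR10 and its partners were read from the same libraries, its level was also set against theirs within each library. UQCR10 counts came to 2.66%, 2.53% and 2.27% of the summed counts of the other 8 complex III genes in shACSS2, against 5.66%, 5.52% and 4.50% in NS. The mean was 2.48 ± 0.199% in shACSS2 and 5.23 ± 0.635% in NS (SD, n = 3 each). An exact two-sided permutation test gave p = 0.1, the floor of this design, and 0.125 after Benjamini-Hochberg adjustment over the 5 ratios tested in this way. UQCR10 was called in these same libraries, so the ratio is no separate support for that call. In this ratio, which needs no scaling between libraries, NS replicate 3 lay closer to the other NS libraries than in CPM.

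**Figure D3:**
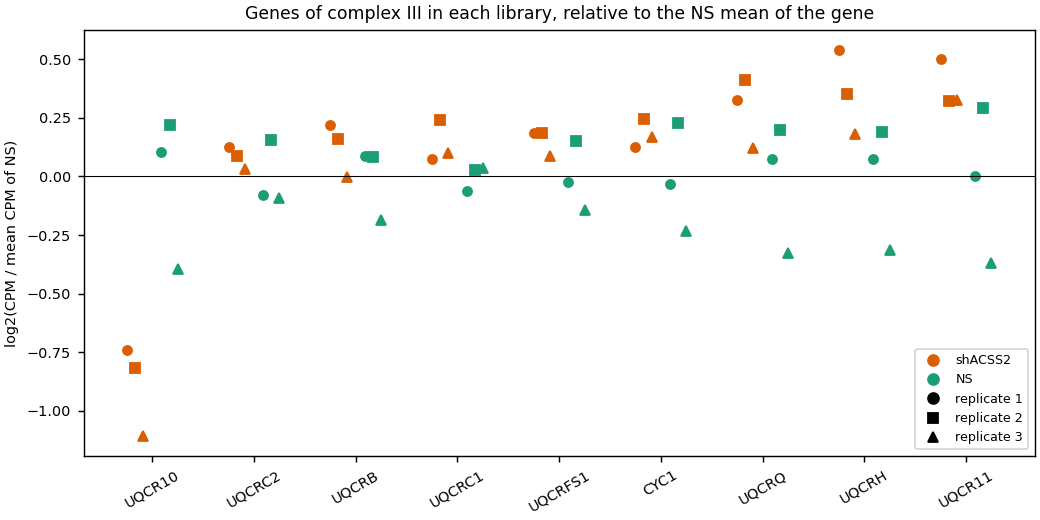
The 9 nuclear genes of complex III in each library, as log2 of CPM over the gene's mean in NS (vertical axis), with shACSS2 points left of NS points for each gene and the replicates given by symbol. UQCR10 lies below 0 in all 3 shACSS2 libraries and below every NS library, while the shACSS2 points of the other 8 genes lie at or above 0 and NS replicate 3 is the lowest or among the lowest NS points for most genes.

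The other subunits of complex III did not pass the test. UQCRFS1, the Rieske iron-sulfur protein, had 139, 139 and 129 CPM in shACSS2, against 120, 135 and 110 CPM in NS (log2 fold change 0.15 ± 0.0992, SE; adjusted p = 0.303, edgeR). CYC1, cytochrome c1, averaged 229 ± 9.69 CPM in shACSS2 and 202 ± 32.6 CPM in NS (SD, n = 3 each). UQCRC2, a core protein of the complex, came to a log2 fold change of 0.08 ± 0.0958 (SE). The highest values belonged to the small subunits UQCR11 at 0.39 ± 0.136 (SE; adjusted p = 0.0624, edgeR) and UQCRH at 0.37 ± 0.125 (SE; adjusted p = 0.0555, edgeR), which encodes the hinge protein. All coding bases of UQCR11 lie in exons of other annotated genes, of which AC005943.1 shares the most exonic bases, so its counts may be incomplete. CYCS, the mobile carrier between complexes III and IV, had 366, 259 and 239 CPM in shACSS2, against 283, 309 and 218 CPM in NS. The groups overlapped (log2 fold change 0.09 ± 0.149, SE).

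The 3′ UTR of UQCR10 holds a short sequence that is more common in genes that fell across this whole comparison, ATGCTCA or the overlapping TGCTCAA, read on the transcript's own strand. The sequence was picked in earlier work on these same fold changes, so what follows is a description and carries no test. UQCR10 has it at 2 places, 86 and 194 bases past the nearer of its annotated stop codons, and NDUFS1 has it at 1 place, 422 bases past the stop. Windows are shown for these genes, both of which fell, and for UQCRFS1 and COX7C, which hold the sequence and did not pass the test, with the match in capitals. All are GENCODE transcript sequence, with matches at chr22:29769805-29769812 and chr22:29769913-29769919 (plus strand), chr2:206123757-206123763 (minus strand), chr19:29207337-29207343 (minus strand) and chr5:86620324-86620331 (plus strand) of GRCh38.
UQCR10, first: gcttgaagatgATGCTCAAggtactcttca
UQCR10, second: gtttagtcagcATGCTCAggaaataaatg
NDUFS1: aatacataatcATGCTCAgatatgtatct
UQCRFS1: taagcactgttATGCTCAgtcatacacgc
COX7C: tatgttaatatATGCTCAAaggagtcgttc

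The sequence was also counted over all genes. It lay in the longest annotated 3′ UTR of 12 of 77 members (15.6%) and of 2381 of the 13263 tested genes whose 3′ UTR reached 50 bases (18.0%), although the members' 3′ UTRs were shorter (median 451 bases, against 1393 bases over those genes). Of the 12 members with it 2 fell, UQCR10 and NDUFS1, none rose and 10 did not pass. Of all 2381 genes with it 576 fell and 75 rose. The share of members with it that fell was no higher than that of all genes with it. Counts this small are no result about the members. Of the 65 members without it 1 fell, NDUFA7, and 11 rose; of all genes without it 736 fell and 1036 rose. Holding the sequence did not go with a lower value in each case: COX7C, with an 8-base match 855 bases past the stop, stood at a log2 fold change of 0.14 ± 0.107 (SE), and UQCRFS1, with a match 205 bases past the stop, at 0.15. The longest annotated 3′ UTR had 9368 bases in NDUFS1 and 694 bases in UQCR10, and need not be the form these cells express.

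Complex IV, cytochrome c oxidase, had 3 rises among 12 genes and no fall, where 7.48% of all tested genes rose and 9.64% fell. Its median log2 fold change was 0.15. Leaving out NS replicate 3 gave a median of 0.08, NS replicate 2 one of 0.24 and shACSS2 replicate 3 one of 0.25. The rise with the smallest adjusted p of all tested members was that of COX7A2L (ENSG00000115944, chromosome 2, 42333546 to 42425088, minus strand), which encodes the factor that ties complex IV to complex III in respiratory supercomplexes. It had 132, 122 and 113 CPM in shACSS2, against 80.3, 91.5 and 75.2 CPM in NS. The groups were well separated. COX7A2L averaged 122 ± 9.56 CPM in shACSS2 and 82.3 ± 8.31 CPM in NS (SD, n = 3 each), a log2 fold change of 0.57 ± 0.104 (SE; adjusted p = 0.00209, edgeR). The call held in all 18 alternatives, with values between 0.50 and 0.65.

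COX7A2, a paralog that is a regular complex IV subunit, did not pass the test (log2 fold change 0.23 ± 0.113, SE; adjusted p = 0.173, edgeR) and was singled out as that paralog. COX7A2L counts came to 80.4%, 82.2% and 76.9% of COX7A2 counts in shACSS2, against 64.9%, 59.1% and 66.1% in NS, a ratio not corrected for gene length. Every shACSS2 library was above every NS library. The exact two-sided permutation test gave p = 0.1, the lowest possible here, and 0.125 after adjustment over the 5 ratios.

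The other rises in complex IV were those of COX7B and COX5A, structural subunits. COX7B had 434, 395 and 319 CPM in shACSS2, against 294, 334 and 229 CPM in NS (log2 fold change 0.42 ± 0.134, SE; adjusted p = 0.0417, edgeR). Its groups overlapped, as shACSS2 replicate 3 lay below NS replicate 2. COX5A had 329, 326 and 278 CPM in shACSS2, against 246, 273 and 212 CPM in NS, without overlap (log2 fold change 0.35 ± 0.108, SE; adjusted p = 0.0353, edgeR). Both calls ended when shACSS2 replicate 2, NS replicate 1 or NS replicate 3 was left out, and that of COX7B also without shACSS2 replicate 1. COX4I1, the largest nuclear-encoded subunit, averaged 492 ± 16.1 CPM in shACSS2 and 442 ± 48.5 CPM in NS (SD, n = 3 each; log2 fold change 0.15 ± 0.0974, SE). NDUFA4, once assigned to complex I and now placed in complex IV, did not pass at 0.38 ± 0.129 (SE; adjusted p = 0.0567, edgeR). The lowest values were those of COX6A1 and COX8A, at −0.04 ± 0.218 and −0.04 ± 0.124 (SE), and at least 50% of the coding bases of each lie in exons of another annotated gene.

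**Figure D4:**
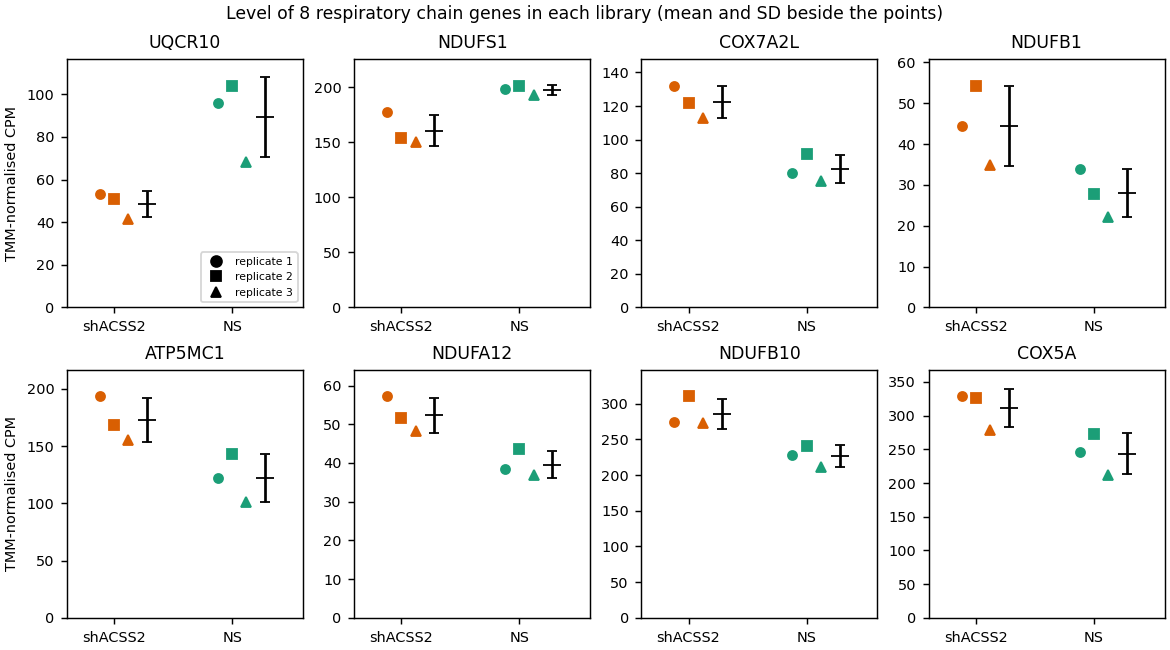
TMM-normalised CPM of 8 genes in each library (vertical axes start at 0), shACSS2 left of NS, replicates given by symbol, with the mean and SD of the 3 libraries beside the points. UQCR10 and NDUFS1 lie lower in every shACSS2 library than in every NS library, and the other 6 genes higher; COX7A2L shows a clear gap between the groups.

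Complex V, the ATP synthase, had fitted values above 0 for each of its 16 genes, but only 3 rose, where 7.48% of all tested genes rose. Its median log2 fold change, 0.22, was the highest of the complexes; it came to 0.13 with shACSS2 replicate 1 left out, 0.09 with NS replicate 3 left out and 0.33 with NS replicate 2 left out. ATP5F1A and ATP5F1B, the subunits that form the catalytic head, did not pass: ATP5F1A averaged 795 ± 54.1 CPM in shACSS2 and 666 ± 65.1 CPM in NS, and ATP5F1B averaged 2038 ± 54.3 CPM in shACSS2 and 1861 ± 75.9 CPM in NS (SD, n = 3 each). Their log2 fold changes were 0.26 ± 0.098 (SE; adjusted p = 0.0819, edgeR) and 0.13 ± 0.0864 (SE; adjusted p = 0.315, edgeR). ATP5F1D, a subunit of the central stalk, rose, at 198, 238 and 225 CPM in shACSS2 and 179, 182 and 150 CPM in NS (log2 fold change 0.37 ± 0.105, SE; adjusted p = 0.0263, edgeR). None of the 4 peripheral stalk genes passed.

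The c-ring, which turns as protons pass, is built from 1 mature protein encoded by 3 genes that differ in their targeting peptide. Of these ATP5MC1 rose. It had 194, 168 and 156 CPM in shACSS2, against 122, 144 and 101 CPM in NS, with no overlap of the groups (log2 fold change 0.50 ± 0.123, SE; adjusted p = 0.0127, edgeR). ATP5MC2 and ATP5MC3 did not pass, with log2 fold changes of 0.10 ± 0.101 (SE) and 0.26 ± 0.134 (SE). ATP5MC1 made up 20.1%, 17.8% and 19.0% of the counts of the 3 genes in shACSS2, against 15.3%, 16.2% and 15.2% in NS. The share of ATP5MC2 was 49.0 ± 2.59% in shACSS2 and 53.3 ± 2.99% in NS (SD, n = 3 each). Exact two-sided permutation tests gave p = 0.1 for each of these shares (0.125 adjusted over the 5 ratios), and p = 0.8 for that of ATP5MC3. The 3 shares make up a whole, so a higher share of ATP5MC1 lowers the others, and these are not separate results.

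ATP5MG, a small membrane subunit where synthase dimers meet, was the other gene of complex V to rise. It had 77.3, 59.0 and 56.2 CPM in shACSS2, against 46.9, 51.8 and 40.4 CPM in NS (log2 fold change 0.47 ± 0.13, SE; adjusted p = 0.0226, edgeR). The groups did not overlap, but 65.7% of its coding bases lie in exons of other annotated genes, of which AP001267.5 shares the most exonic bases. The calls of ATP5F1D, ATP5MC1 and ATP5MG were lost without NS replicate 1 and without NS replicate 3, and that of ATP5F1D also without shACSS2 replicate 2 or 3. ATP5IF1, the inhibitor that stops the synthase from running backwards, had 186, 173 and 140 CPM in shACSS2, against 182, 176 and 111 CPM in NS. Its groups overlapped (log2 fold change 0.09 ± 0.157, SE), as did its counts as a percentage of those of ATP5F1B, 8.15 ± 0.965% in shACSS2 and 8.38 ± 2.09% in NS (SD, n = 3 each).

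Summed over each complex, the nuclear genes overlapped between the groups in all 5 complexes. The sum was 3478, 3421 and 3121 CPM in shACSS2 for complex I, against 3022, 3208 and 2642 CPM in NS. For complex V it was 6106, 5781 and 5371 CPM in shACSS2, against 5002, 5550 and 4542 CPM in NS. All members together took 1.45 ± 0.0857% of library counts in shACSS2 and 1.34 ± 0.12% in NS (SD, n = 3 each). The overlap came from NS replicate 2, which lay above shACSS2 replicate 3 in these sums.

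The mitochondrially encoded partners of these subunits went the other way. All 13 fell, where 9.64% of all tested genes fell, with a median log2 fold change of −1.16. Those of complex I summed to 1873, 2101 and 2087 CPM in shACSS2, against 5567, 3497 and 6159 CPM in NS, and those of complex IV to 3316, 3297 and 3422 CPM in shACSS2, against 7324, 5276 and 8347 CPM in NS. Within each library, the ratio of mitochondrially encoded to nuclear counts was 0.607 ± 0.0655 in shACSS2 and 1.75 ± 0.625 in NS for complex I, and 1.15 ± 0.142 in shACSS2 and 2.88 ± 1.02 in NS for complex IV (SD, n = 3 each). In NS this ratio was lowest in replicate 2 and highest in replicate 3, the libraries where the nuclear members stood highest and lowest. Leaving the mitochondrially encoded genes out before scaling left the calls among nuclear members at 11 higher and 3 lower.

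**Figure D5:**
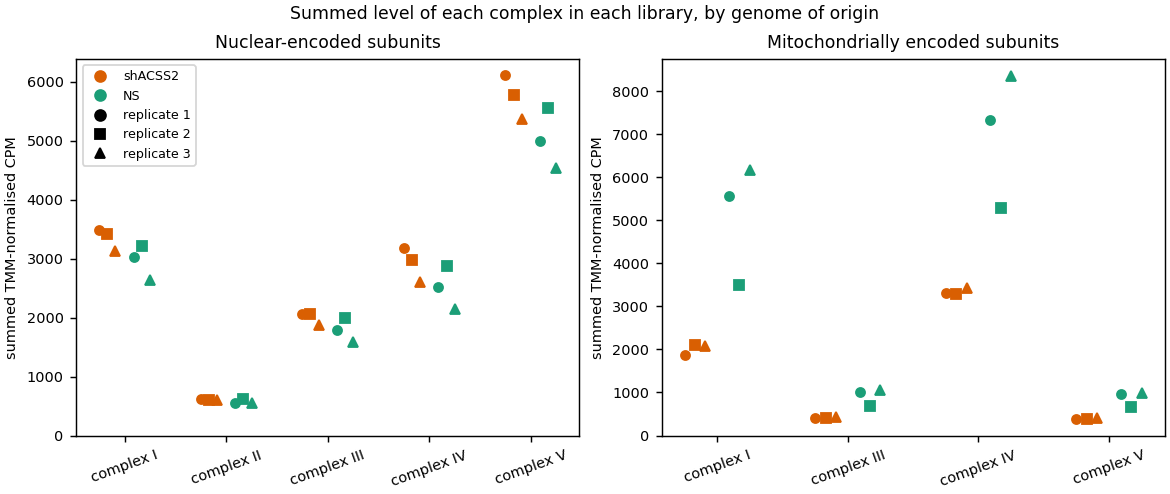
Summed TMM-normalised CPM per complex in each library (vertical axes start at 0, with different scales), nuclear-encoded subunits on the left and mitochondrially encoded ones on the right, shACSS2 points left of NS points. The nuclear sums of the groups overlap in each complex, and the mitochondrially encoded sums of shACSS2 lie below all those of NS.

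Assembly factors, which build the complexes without staying in them, had medians above 0 in each complex. The median log2 fold change was 0.18 over 16 factors of complex I, 0.37 over 4 of complex II, 0.10 over 6 of complex III, 0.25 over 23 of complex IV and 0.17 over 4 of complex V. Of these 53 genes 5 rose, where 7.48% of all tested genes rose, and none fell, where 9.64% of all tested genes fell; the share that rose is near that over all genes and is no result about assembly factors. Beside NDUFAF2 these were SDHAF3 at 0.48 ± 0.129 (SE; adjusted p = 0.0194, edgeR) and SDHAF1 at 0.39 ± 0.119 (SE; adjusted p = 0.0345, edgeR), which serve the iron-sulfur subunit of complex II, and CMC1 and LRPPRC for complex IV. CMC1, a COX1 chaperone, had a log2 fold change of 0.43 ± 0.126 (SE; adjusted p = 0.0273, edgeR). LRPPRC, a stabiliser of mitochondrial messenger RNA, had 531, 453 and 455 CPM in shACSS2, against 352, 395 and 399 CPM in NS (log2 fold change 0.33 ± 0.0978, SE; adjusted p = 0.0306, edgeR). These 4 calls held in 2 to 4 of 6 fits with a library left out. In the lists where none passed, the smallest p belonged to LYRM7 (−0.29 ± 0.125, SE; adjusted p = 0.116, edgeR), a complex III chaperone, and ATPAF2 (0.30 ± 0.138, SE; adjusted p = 0.148, edgeR).

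Coenzyme Q synthesis, which supplies the carrier between complexes I to III, had 8 of 11 genes that did not pass the test. The other genes were 1 that rose and 2 that fell, where 7.48% of all tested genes rose and 9.64% fell; counts this small are no result about the pathway as a whole. COQ8A, an atypical kinase-like protein of the pathway, had 97.5, 119 and 121 CPM in shACSS2, against 167, 171 and 172 CPM in NS, with a wide gap between the groups. COQ8A fell, with a log2 fold change of −0.59 ± 0.101 (SE; adjusted p = 0.00141, edgeR), in all 18 alternatives. COQ7, a hydroxylase of the pathway, fell by 0.37 ± 0.125 on the log2 scale (SE; adjusted p = 0.0499, edgeR), and COQ2, which joins the ring to its isoprenoid tail, rose by 0.42 ± 0.129 (SE; adjusted p = 0.0353, edgeR); both calls held in 2 of 6 fits with a library left out. Among 7 tested genes of other routes into the coenzyme Q pool 1 rose and 1 fell, counts too small to be a result about these routes. ETFDH, the entry point for electrons from fatty acid oxidation, fell by 0.39 ± 0.121 on the log2 scale (SE; adjusted p = 0.0375, edgeR), in 1 of 6 such fits. SQOR, the sulfide oxidoreductase, passed the count filter only through shACSS2, where it is high, and was called higher from 16, 20 and 17 counts in shACSS2, against 9, 6 and 7 counts in NS (log2 fold change 1.46 ± 0.431, SE; adjusted p = 0.0297, edgeR), also in 1 of 6 such fits.

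Of 3 subunits that the symbol rule left out, NDUFAB1, the acyl carrier protein that is also a subunit of complex I, rose by 0.37 ± 0.118 on the log2 scale (SE; adjusted p = 0.0418, edgeR). Of the tissue-restricted isoforms 7 were in the table and 2 were abundant enough to test, and neither passed; the smaller p was that of NDUFA4L2, with 0.311, 2.14 and 1.74 CPM in shACSS2 and 2.22, 2.22 and 1.75 CPM in NS. Among 12 genes for the transcription of respiratory genes, TFB1M, a mitochondrial rRNA methyltransferase, rose by 0.35 ± 0.103 (SE; adjusted p = 0.0282, edgeR) and PPARGC1B, a coactivator of the nuclear programme, fell by 0.40 ± 0.117 (SE; adjusted p = 0.0289, edgeR) on the log2 scale. Of these 3 calls, those of NDUFAB1 and TFB1M held in 2 of 6 fits with a library left out and that of PPARGC1B in 3. Of the 12 transcription genes 1 rose and 1 fell, where 7.48% of all tested genes rose and 9.64% fell. Counts this near those shares are no result about that list.

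Promoters of respiratory chain genes are known for binding sites of NRF1, of the ETS factor GABP and of YY1. RefSeq promoters (GRCh38.p14, from 250 bases before to 50 after the start) were found for 64 of 78 members and searched on both strands for the NRF1 core (the capitals in the windows shown here, with any base in the sixth place), for CCGGAAG (ETS) and for AAGATGG (YY1). The NRF1 core lay in 15 of 64 (23.4%), against 12.7% of promoters of all tested genes and 6.98% of all 27305 promoters. The ETS letters lay in 20 (31.3%), against 21.1% of promoters of tested genes and 12.2% of all promoters. The YY1 letters lay in 18 (28.1%), against 9.08% of promoters of tested genes and 7.11% of all promoters. Of the 10 members that rose and had a promoter, 2 held the NRF1 core, 1 the ETS letters and 2 the YY1 letters. A match is a run of letters and not a known site. UQCR10, which fell, and NDUFA12 and NDUFB4, which rose, all held the NRF1 core, and NDUFB4 held it at further places that are not shown. The whole windows, with the core in capitals, lie at chr22:29767351-29767380 (plus strand), chr12:95003794-95003823 (minus strand) and chr3:120596318-120596347 (plus strand).
UQCR10: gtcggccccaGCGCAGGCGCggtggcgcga
NDUFA12: acctagctctGCGCACGCGCagagccacca
NDUFB4: cctcagaatcGCGCAGGCGCaattgtgccc

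Counting could affect some members more than others. At least 50% of the coding bases lie in exons of another annotated gene in 13 members, and 55 members share no coding base. Annotated pseudogenes exist for 45 members, 198 in all, and NDUFV2 was the member whose pseudogenes exceeded 5% of its own CPM. UQCR10 and COX7A2L share no coding base with another gene.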

How the data were processed

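RNA sequencing of 6 libraries was analysed. The deposited file holds whole-number read counts per gene, not normalised by the authors; the submitters' processing notes name fastp, HISAT2 2.0.5, featureCounts 1.5.0-p3, DESeq2 (given as 4.3.1) and hg19. Nothing in the labels or notes gives the strand setting or the handling of shared reads. All 58735 identifiers matched GENCODE v29, an annotation of GRCh38, from which the printed coordinates come.

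Counts were fitted with edgeR 4.0.16 in R 4.3.3 (filterByExpr, TMM factors, robust quasi-likelihood F test, group as the only term), with Benjamini-Hochberg adjustment over 16210 genes at 0.05. Genes past this test are said to rise or fall. The standard error (SE) of a log2 fold change was derived from the test, as its absolute value over the square root of F. Replicates differed beyond sampling noise (chi-square per degree of freedom 4.28 to 17.3 for genes with 20 counts or more), so no pair was counted as the same library; separate preparations of 1 culture could differ as much. A library's 3-count floor was 0.144 to 0.181 CPM, for counting error only. Of the ratios within libraries, 5 were tested by exact permutation (scipy 1.17.1), and the others were described only. No p under 0.1 was possible in these tests. The ratios use the libraries that gave the calls and are no separate support for them.

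Alternatives were other scalings, filters and tools (DESeq2 1.42.0, limma 3.58.1), corrections, a replicate block and each library left out. Members and lists were chosen with earlier results of these data known. Named were members past the test, in each complex the 2 highest and 2 lowest values at 5 CPM or more, core and catalytic subunits, and up to 3 changed genes of each list (where none changed, the smallest p). Single values of some genes under this rule are not reported here.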

Additional observations from a re-analysis of the deposited data

How the results depend on the processing

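ACSS2 kept its direction and its call in all alternatives, with a log2 fold change between −2.06 and −1.85 over the fits with a library left out. The count of members that rose (11) was 5 with library totals, 18 with no count filter, 28 with voom and library quality weights, 22 with correction for GC content and length and 1 at an adjusted p of 0.01; it was 1 to 19 over the fits with a library left out. The count that fell (3) was 1 at an adjusted p of 0.01 and 1 to 3 with a library left out. Calls over all tested genes, higher and lower together, moved too. They numbered 2776 in the main fit, 2842 with library totals, 5917 with quality weights and 4605 with the GC and length correction. With no count filter they numbered 3046 of 31055 genes. The replicate block gave 2923 such calls, and the block with the correction 4703. The median of complex II was −0.013 with library totals and 0.18 with the GC and length correction. Over all tested genes the median was −0.070 with library totals and 0.047 with the GC and length correction. That of complex V was 0.092 to 0.33 with a library left out. The replicate numbers did not pair the libraries: deviations of same-numbered libraries from their group means correlated at −0.04, −0.06 and 0.10. With the replicate number as a block 17 members rose and 2 fell. With the block and the GC and length correction 29 rose and 2 fell. The median of complex II was then 0.18, against 0.047 over all tested genes.

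Of the named genes, these turned sign. With library totals NDUFV1 was at −0.054 and NDUFS8 at −0.070, and NDUFS8 was at −0.0015 with a filter of 1 CPM in 3 libraries. With quality weights SDHA was at 0.065, CYCS at −0.10 and ATP5IF1 at −0.074. With the GC and length correction SDHA was at 0.10 and COX8A at 0.011, and with the block added SDHA was at 0.10 and COX8A at 0.0038. Over the fits with a library left out, NDUFV1 ranged from −0.039 to 0.10, NDUFS7 from −0.030 to 0.16, NDUFS8 from −0.050 to 0.058, NDUFA8 from −0.20 to 0.0045, SDHA from −0.068 to 0.064, CYCS from −0.12 to 0.21, COX6A1 from −0.25 to 0.20, COX8A from −0.14 to 0.10 and ATP5IF1 from −0.11 to 0.21. The cause of these shifts was not tested. Depth limits NDUFV2, NDUFA7 and NDUFA13, which had at most 91 counts in a library.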
